A study of Homo sapiens with 6 samples.

Results

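The HOX genes of the HOXA, HOXB, HOXC and HOXD clusters were compared between Ewing sarcoma cells with and without a knockdown of EHD1, a regulator of vesicle traffic from the recycling endosome. Members were every gene of the deposited count table whose symbol is HOX followed by A, B, C or D and a number, which gave 39 of 60676 genes, namely 11 HOXA, 10 HOXB, 9 HOXC and 9 HOXD genes. The cells were TC71, an established human Ewing sarcoma line, made into stable polyclonal lines with lentivirus and selected with puromycin. The inducible vector carried either a non-targeting shRNA (shNTC+Dox, 3 libraries) or an shRNA against EHD1 (shEHD1+Dox, 3 libraries), and all 6 samples received Dox at 0.5 µg/ml for 3 days, so that both groups share the vector, its GFP and the drug. Which shRNA sequence against EHD1 these libraries carry was not given in the sources used here, and cells without Dox were not analysed here. The groups differ in the transduced line as well as in the shRNA. Loss of EHD1, other effects of the shRNA and a difference between lines therefore cannot be told apart.

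HOX genes encode homeodomain transcription factors that set the identity of body segments along the head-to-tail axis. Within a cluster they lie in the order in which they are used, from anterior genes with low numbers to posterior genes with high numbers, and genes with the same number in different clusters are paralogs of each other. HOX proteins bind DNA with TALE partners such as PBX and MEIS, Polycomb complexes keep unused HOX genes silent, and MLL complexes keep used ones active. In Ewing sarcoma, posterior HOXD genes are known for high expression. The clusters also hold the miR-196 genes, whose mature RNA is known to direct cleavage of the HOXB8 mRNA.

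A miR-196 gene was called lower at low counts in these libraries, as given further on with its limits. The mature sequences are shown here with their shared seed (bases 2 to 8) in capitals, as listed by RefSeq on GRCh38. The first is made from MIR196A2 at chr12:53991762-53991783 on the plus strand and from MIR196A1 at chr17:48632532-48632553 on the minus strand, and the second from MIR196B at chr7:27169528-27169549 on the minus strand.
hsa-miR-196a-5p: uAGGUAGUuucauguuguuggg
hsa-miR-196b-5p: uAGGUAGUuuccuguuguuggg
Among the 3′ UTRs of the HOX genes, the stretch that paired best with miR-196a without gaps was in HOXB8, with 21 Watson-Crick pairs and 1 G-U pair over 22 bases. HOXA7 followed with 15 Watson-Crick pairs, and HOXA9, HOXB4, HOXC8 and HOXD8 had 14 each. The stretches of HOXB8, HOXA7 and, as an example of the last, HOXC8 are printed from the transcript sequences of GENCODE. The bases that face the seed are in capitals. They lie at chr17:48612770-48612791, chr7:27154430-27154451 and chr12:54012469-54012490.
HOXB8: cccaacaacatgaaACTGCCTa
HOXA7: cctactcccctaaaACTACCTa
HOXC8: acccaacaactgagACTGCCTa

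Sequencing depth ran from 22711235 to 30582187 counts per library, and HOX genes took 522.6 to 569.5 of every 1000000 counts. EHD1 itself had 713, 775 and 589 counts in the control libraries and 215, 175 and 290 after knockdown, or 27.2 ± 0.81 and 8.02 ± 1.18 CPM (counts per 1000000 counts, mean ± SD, n = 3 each), a fall of 1.76 on the log2 scale (SE 0.12, edgeR adjusted p = 0.000135). Replicates differed by more than sampling noise, and the shNTC+Dox library of replicate 3 stood apart from its group, with a chi-square per degree of freedom of 23.7 and 25.1 against the other libraries, which differed from each other by 5.27. The shEHD1+Dox library of replicate 2 stood apart in the same way, at 16.9 and 16.0 against 7.39. Labelled as Ewing sarcoma, the cells had 7 of 8 Ewing sarcoma markers at 1 CPM or more. All 8 summed to 736 to 807 CPM in shNTC+Dox and 703 to 840 CPM in shEHD1+Dox. Within this sum CD99 was higher (log2 fold change 0.33, edgeR adjusted p = 0.0293) and STEAP1 lower (-0.43, edgeR adjusted p = 0.00443). CCK, not tested for low counts, had 11, 5 and 12 counts against 0, 0 and 0. Epithelial, haematopoietic and endothelial markers had 0 of 5, 0 of 4 and 0 of 4 at that level, and KRT5, KRT14, CD3E, VWF and KDR had no count. Of 7 fibroblast markers 4 reached it, with a summed level of 86.1 to 142 CPM in shNTC+Dox and 114 to 138 CPM in shEHD1+Dox, POSTN at 0 in every library and 1 lower (DCN, at 117, 151 and 104 counts against 68, 65 and 67), whose part in the results below was not tested. In bulk RNA, fewer cells of a type and less RNA per cell cannot be told apart.

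The first question was which HOX genes these cells express. Levels are given per length as RPKM, counts per kilobase of annotated exon and per 1000000 counts, averaged over the 6 libraries. HOXD genes were the most abundant, and the posterior member HOXD13 led with 58.9 RPKM. HOXD10 followed at 28.2 RPKM, then HOXB7 at 16.6, HOXB13 at 14.8, HOXD11 at 11.4, HOXD9 at 11.1 and HOXD8 at 10.7 RPKM, so that 5 of the 7 members at 10 RPKM or more belonged to HOXD. In this order HOXD13 exceeded HOXD10, and HOXD10 exceeded HOXB7, in every library, while HOXB7 and HOXB13, and the neighbours from HOXB13 down to HOXD8, had overlapping ranges.

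HOXD13, which patterns digits and the urogenital tract, had 3782, 4292 and 3355 counts in shNTC+Dox replicates 1, 2 and 3, and 3802, 3337 and 4184 counts after EHD1 knockdown. HOXB13, a regulator of prostate and tail development, had 1335, 1292 and 851 counts against 1356, 962 and 1440, and HOXD11, a limb and kidney gene, had 763, 732 and 497 against 617, 455 and 820. HOXB7 and HOXD10 are given below with the members that passed the test. These 3 genes were well above the floor in each of the 6 libraries, and their groups overlapped in counts.

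HOXC12 at 9.30, HOXC8 at 7.96, HOXB9 at 6.64, HOXD4 at 6.38, HOXA10 at 4.61, HOXC6 at 4.55, HOXB6 at 4.21, HOXC13 at 4.03 and HOXB5 at 3.21 RPKM came next. Between 1 and 3 RPKM were HOXB4, HOXC9, HOXC4, HOXD3, HOXB2, HOXC10, HOXB3 and HOXA4. HOXA genes were the least abundant cluster, with HOXA10 and HOXA4 alone at 1 RPKM or more. Under 1 RPKM were 15 members, among them HOXA2, HOXA3, HOXA5, HOXA6, HOXA7, HOXA9, HOXA11, HOXA13, HOXB1, HOXB8, HOXC5, HOXC11, HOXD1 and HOXD12. Of these HOXB1, an anterior gene of the hindbrain, had 0 counts in all libraries, under a floor of 3 counts per library. With the length of the longest annotated transcript in place of all exons, the same number of members, 24, reached 1 RPKM.

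**Figure D1:**
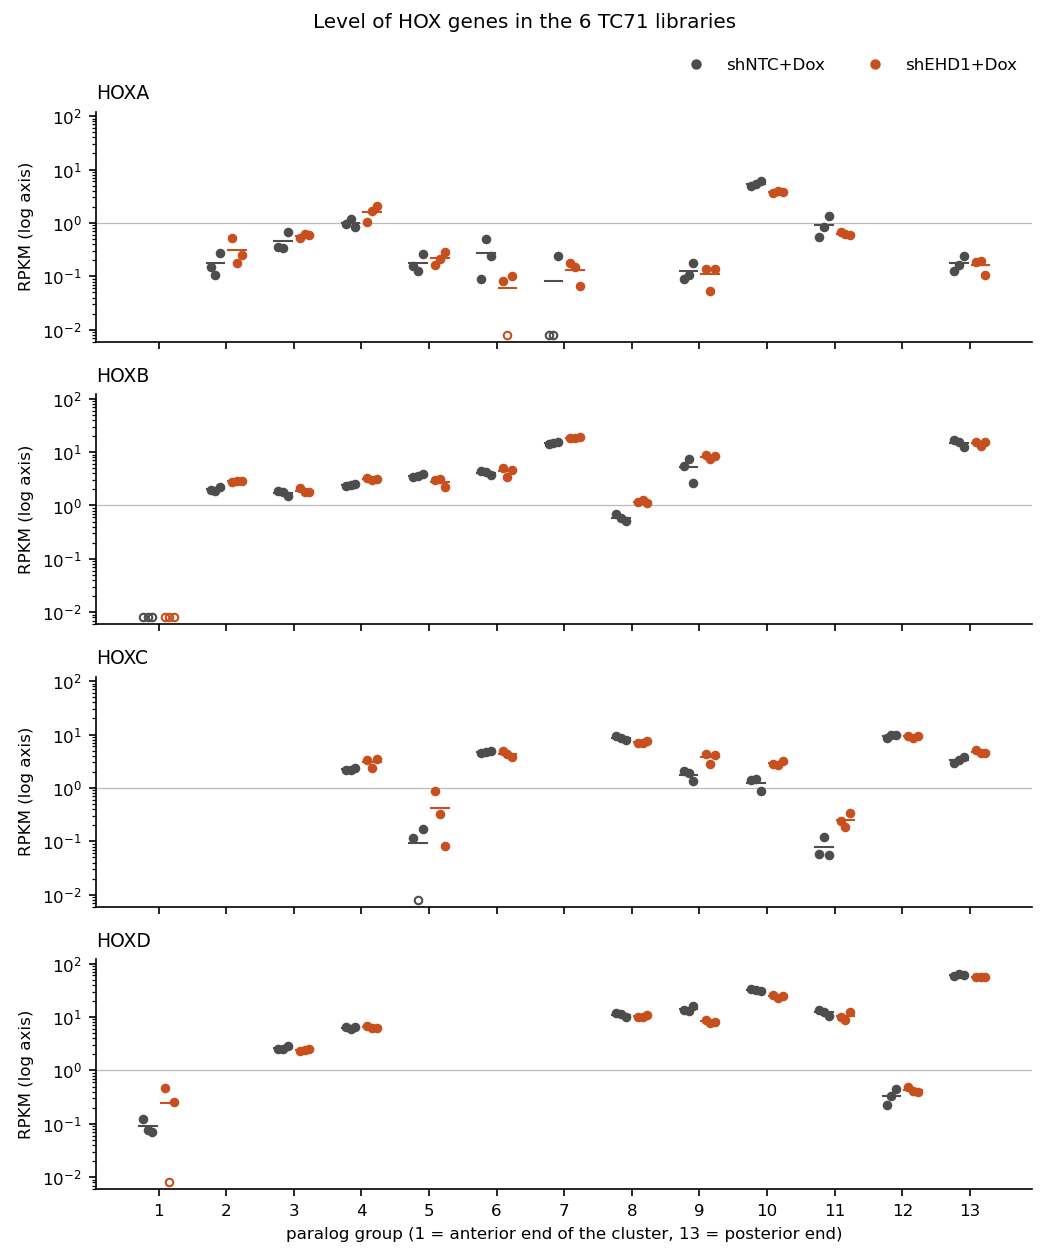
Level of the HOX genes reported here in RPKM on a log axis by paralog group, with 1 panel per cluster, 1 point per library (grey shNTC+Dox, orange shEHD1+Dox) and a line at the mean of each group; open circles at the lower edge are libraries with no count. HOXD13 lies highest in both groups, and the HOXA panel lies mostly under the grey line at 1 RPKM.

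Taken by cluster, HOXD genes held a smaller part of the summed HOX level, and HOXB and HOXC genes a larger part, in each knockdown library than in each control library. HOXD genes made up 60.9%, 60.2% and 61.6% of the summed HOX RPKM with shNTC+Dox, against 53.0%, 54.5% and 54.0% with shEHD1+Dox. HOXB genes went from 22%, 22% and 19.8% to 26.3%, 25.7% and 25.9%, and HOXC genes from 13.5%, 13.7% and 13.9% to 16.9%, 15.7% and 16.2%. HOXA genes held 3.57% to 4.74% and 3.79% to 4.11%. The groups did not overlap for HOXB, HOXC and HOXD and overlapped for HOXA, which is given as a description with no test. The sum over all clusters was 225 to 235 RPKM in shNTC+Dox and 210 to 227 RPKM in shEHD1+Dox, and the shares depend on the exon lengths used.

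**Figure D2:**
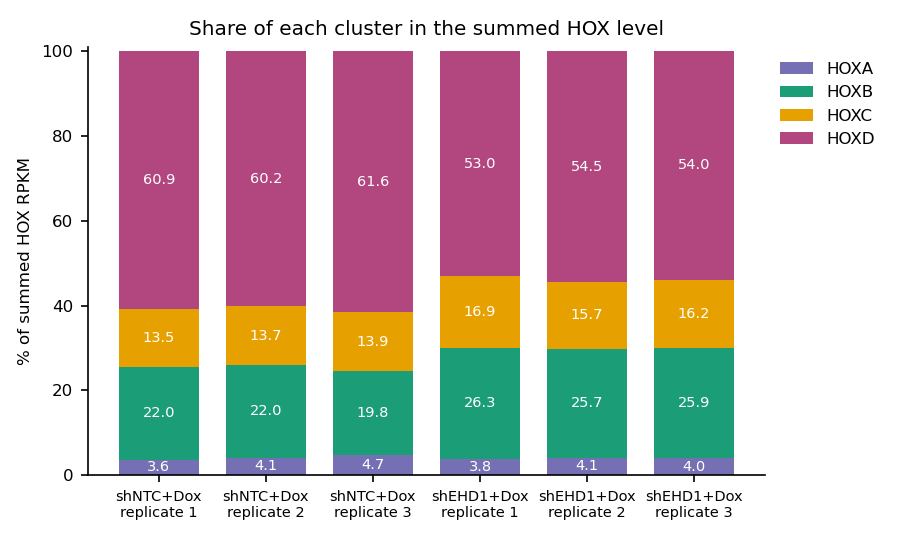
Share of each cluster in the summed HOX RPKM, in percent, with 1 bar per library. The HOXD part is 60.2% to 61.6% of the bar in the 3 shNTC+Dox libraries and 53.0% to 54.5% in the 3 shEHD1+Dox libraries.

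The second question was which HOX genes changed with EHD1 knockdown. Of the 39 members, 33 had at least 10 counts in at least 3 libraries and were tested, with a Benjamini-Hochberg adjustment over all 16785 genes tested. At an edgeR adjusted p under 0.05, 7 members were higher in shEHD1+Dox (HOXB2, HOXB7, HOXB8, HOXC9, HOXC10, HOXC11 and HOXC13) and 3 were lower (HOXA10, HOXD9 and HOXD10). Over all genes tested 8.59% were higher and 8.75% were lower. In this fit of all 6 libraries, the 21.2% of tested members that were higher stood above that share. The 9.09% that were lower were close to theirs. With a change of at least 2-fold as well, 4 members were higher (HOXB8, HOXC9, HOXC10 and HOXC11) beside 1.08% of all genes, and 0 were lower beside 1.74% of all genes. DESeq2's Wald test also called 0 members lower by at least 2-fold. HOXC11, counted among the 7 and the 4, passed the filter on low counts only through the shEHD1+Dox libraries, where it was higher. Its part in these counts is therefore a description. Without the shNTC+Dox library of replicate 3 the members higher and lower numbered 7 and 4, with 1 (HOXC10) higher by at least 2-fold, and without the shEHD1+Dox library of replicate 2 they numbered 6 and 3, with 3 higher by at least 2-fold. Leaving out the shEHD1+Dox library of replicate 1 or 3 left 1 member higher, HOXC10, and leaving out the shNTC+Dox library of replicate 1 or 2 left 3. Shares over all genes were not counted with a library left out. Whether members stood above the background there is therefore not known. The 33 log2 fold changes ran from -0.75 to 1.67 with a median of 0.09, beside a median of 0.00 over all genes tested, and 18 were positive and 15 negative. By cluster, edgeR called 0 HOXA genes higher and 1 lower, 3 HOXB genes higher and 0 lower, 4 HOXC genes higher and 0 lower, and 0 HOXD genes higher and 2 lower. In the directions with 0 calls, 1 HOXA, 0 HOXB, 1 HOXC and 0 HOXD genes had an unadjusted p under 0.05, and DESeq2's Wald test called 0.

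Not tested for low counts were HOXA5, HOXA6, HOXA7, HOXB1, HOXC5 and HOXD1. HOXC5 had 5, 0 and 6 counts against 40, 13 and 4, and HOXD1 had 6, 4 and 3 against 25, 0 and 15. HOXA6 had 3, 18 and 7 counts against 3, 0 and 4. The groups overlapped for each of these, and a change could not be detected at this depth.

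**Figure D3:**
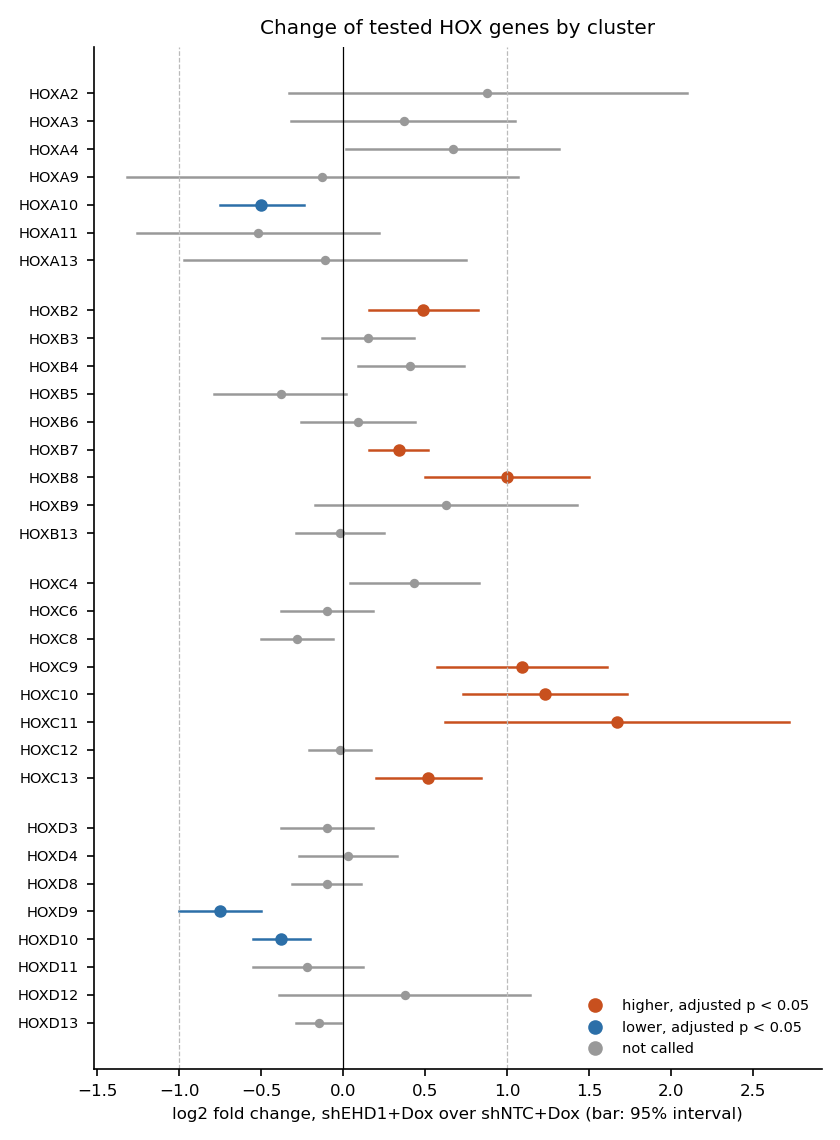
Log2 fold change of shEHD1+Dox over shNTC+Dox for the tested HOX genes reported here, in order of paralog group within each cluster, with bars for 95% intervals, dashed lines at 2-fold and colour for an edgeR adjusted p under 0.05. Orange points are HOXB and HOXC genes, and blue points are HOXA10, HOXD9 and HOXD10.

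The posterior HOXC genes rose, with HOXC12 as the exception. HOXC10, which patterns the lumbar spine and the hindlimb motor neurons, was the member with the lowest adjusted p among those that rose. Of the 5 posterior HOXC genes (paralog groups 9 to 13) 4 were higher and 0 lower, beside 8.59% and 8.75% of all genes tested. Among the 4, HOXC11 passed the filter on low counts only through the shEHD1+Dox libraries, where it was higher. The median log2 fold change of the 5 was 1.09. None of the 3 tested central members, HOXC4, HOXC6 and HOXC8, was called, with a median of -0.10. Whether the posterior and central parts of the cluster differ was not tested.

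HOXC10 (ENSG00000180818, chr12:53985065-53990279, plus strand) had 88, 96 and 46 counts in the controls against 192, 158 and 238 after knockdown. Its lowest shEHD1+Dox library stood above the highest control library, and its level went from 1.25 ± 0.329 to 2.94 ± 0.272 RPKM, 2.35-fold higher (log2 fold change 1.23, SE 0.22, edgeR adjusted p = 0.00684). Over 13 alternative settings the adjusted p stayed between 1.88e-05 and 0.0388.

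HOXC9 (ENSG00000180806, chr12:53994895-54003337, plus strand), a gene of thoracic identity and of motor neuron columns, had 90, 87 and 51 counts against 203, 116 and 217. All libraries of the knockdown were above all controls, and the level went from 1.77 ± 0.356 to 3.78 ± 0.808 RPKM, 2.13-fold higher (log2 fold change 1.09, SE 0.23, edgeR adjusted p = 0.0138). The call was lost without the shEHD1+Dox library of replicate 1 (adjusted p = 0.0632) or replicate 3 (adjusted p = 0.0629). HOXC9 shares 73 exon bases with HOXC6 on the same strand and 163 with the antisense gene HOXC-AS2, and the libraries do not keep the strand of the RNA. Summed over these 3 genes the log2 fold change was 0.19 (edgeR adjusted p = 0.254), where a rise of HOXC9 alone would have given 0.23, since HOXC6 held most of the counts. HOXC-AS2 had 5, 6 and 0 counts against 21, 13 and 23 (log2 fold change 2.21, SE 0.67, edgeR adjusted p = 0.0512), and how far reads of one gene were counted for the other was not tested. HOXC-AS2 passed the filter only through the shEHD1+Dox libraries, where it was higher, and was singled out after its values were seen.

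HOXC11 (ENSG00000123388, chr12:53973126-53977643, plus strand), a hindlimb and kidney gene, had 5, 11 and 4 counts against 22, 15 and 34. It had the largest log2 fold change among the members, 1.67 (SE 0.46, 95% interval 0.62 to 2.72, edgeR adjusted p = 0.0389) and, after HOXA9, the lowest counts of the members tested. Its levels were 0.0782 ± 0.0377 and 0.254 ± 0.0758 RPKM, and the call was lost in 5 of 11 alternatives. HOXC11 would not have passed the filter on low counts without the shEHD1+Dox libraries, where it was higher.

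HOXC13 (ENSG00000123364, chr12:53938831-53946544, plus strand), a regulator of hair and nail keratins, had 178, 217 and 197 counts against 349, 260 and 329. The groups did not overlap, and the level went from 3.31 ± 0.437 to 4.74 ± 0.399 RPKM (log2 fold change 0.52, SE 0.14, edgeR adjusted p = 0.0374), a call lost in 7 of 13 alternatives. HOXC12, which lies between HOXC13 and HOXC11, had 752, 876 and 707 counts against 889, 689 and 962. Its log2 fold change was -0.02 with a 95% interval of -0.21 to 0.17, at a level of 9.38 ± 0.543 and 9.23 ± 0.529 RPKM that was higher than that of its called neighbours in both groups.

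**Figure D4:**
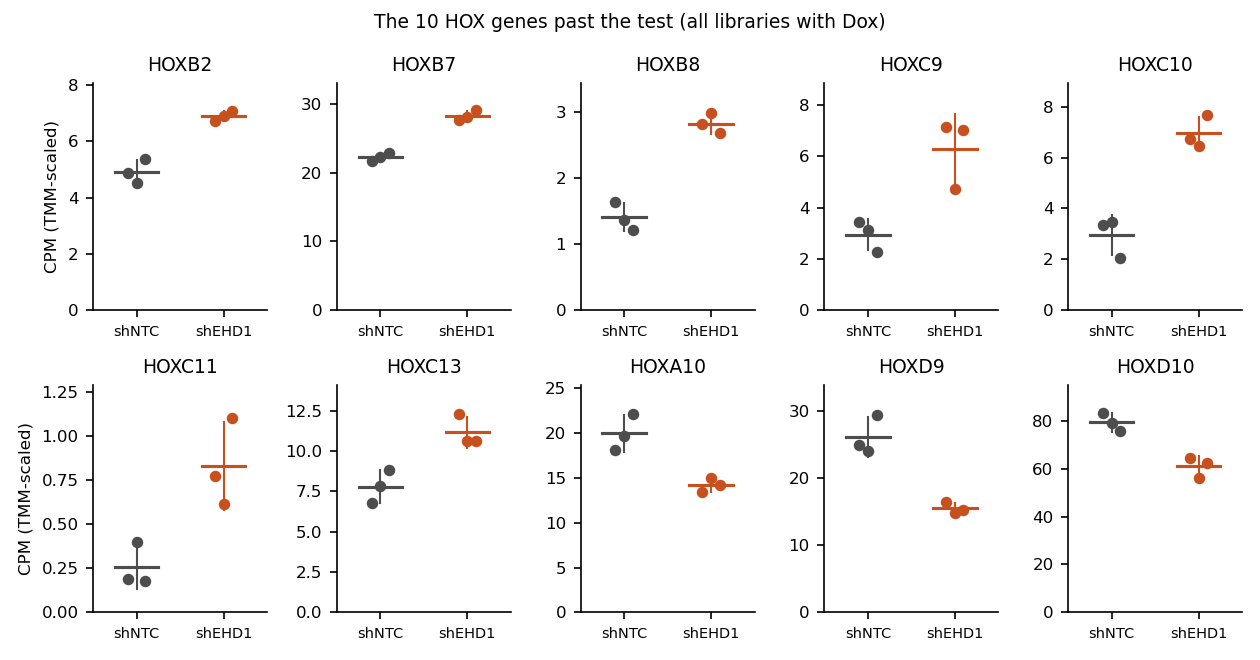
Level in CPM, from 0, of the 10 HOX genes at an edgeR adjusted p under 0.05, with 1 point per library, a horizontal line at the mean and a vertical line of 1 SD on either side (n = 3 per group). In each panel the points of shNTC+Dox (grey) and shEHD1+Dox (orange) do not overlap.

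In HOXB, 3 of 9 tested members rose, all of them among HOXB2 to HOXB8, and 0 fell, with a median log2 fold change of 0.34. HOXB8 (ENSG00000120068, chr17:48611377-48615292, minus strand), known from blood and spinal cord development, had 43, 38 and 27 counts against 80, 73 and 83. The highest control library was well below the lowest knockdown library, and the level went from 0.584 ± 0.0892 to 1.18 ± 0.0631 RPKM (log2 fold change 1.00, SE 0.22, edgeR adjusted p = 0.0168). Leaving out the shNTC+Dox library of replicate 2 ended the call (adjusted p = 0.0509), as did leaving out the shEHD1+Dox library of replicate 1 (0.0635) or replicate 3 (0.0565).

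HOXB7 (ENSG00000260027, chr17:48607232-48633572, minus strand), a gene often studied in breast and skin cancers, had 572, 614 and 512 counts against 788, 685 and 900. It was the most abundant member to rise, from 14.7 ± 0.396 to 18.6 ± 0.484 RPKM (log2 fold change 0.34, SE 0.08, edgeR adjusted p = 0.0205). HOXB2 (ENSG00000173917, chr17:48540894-48545109, minus strand), which patterns the hindbrain, had 128, 125 and 120 counts against 192, 169 and 219. Its level went from 2.00 ± 0.176 to 2.81 ± 0.0678 RPKM with no overlap (log2 fold change 0.49, SE 0.15, edgeR adjusted p = 0.0487). The call of HOXB7 was lost in 5 of 13 alternatives and that of HOXB2 in 8 of 13.

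HOXB9, a posterior member, had 375, 533 and 152 counts against 638, 459 and 665. The groups overlapped, with the lowest value in the library of replicate 3 that stood apart, and the log2 fold change of 0.63 did not pass the test (SE 0.34, edgeR adjusted p = 0.248). HOXB4, a regulator of blood stem cells, had 120, 133 and 111 counts against 187, 150 and 197, and missed the threshold with a log2 fold change of 0.41 (SE 0.14, edgeR adjusted p = 0.0817). HOXB13 gave -0.02 with a 95% interval of -0.29 to 0.25.

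The members that fell were HOXD9, HOXD10 and HOXA10, a share close to that over all genes tested (9.09% beside 8.75%). They belong to paralog groups 9 and 10, where 7 members were tested, 3 lower and 2 higher (HOXC9 and HOXC10). HOXD9 (ENSG00000128709, chr2:176122719-176124937, plus strand), a limb and spinal gene, had 655, 664 and 659 counts against 468, 361 and 475. All 3 knockdown libraries were lower than all controls, and the level went from 14 ± 1.58 to 8.29 ± 0.455 RPKM, 1.68-fold lower (log2 fold change -0.75, SE 0.11, edgeR adjusted p = 0.00286). HOXD9 shares no exon bases with another gene.

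HOXD10 (ENSG00000128710, chr2:176108790-176119937, plus strand), a limb and motor neuron gene, had 2191, 2184 and 1689 counts against 1831, 1375 and 1930. Raw counts overlapped between the groups, and levels scaled for depth and length did not, at 31.9 ± 1.54 and 24.5 ± 1.70 RPKM (log2 fold change -0.38, SE 0.08, edgeR adjusted p = 0.0123). It shares 452 exon bases with HOXD11, and the sum of both gave -0.34 (adjusted p = 0.0294). HOXD9 and HOXD10 kept their calls under all 13 alternatives.

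HOXA10 (ENSG00000253293, chr7:27170605-27180261, minus strand), a gene of the uterus and of blood progenitors, had 476, 546 and 496 counts against 382, 366 and 439. It was the one HOXA gene called, and went from 5.40 ± 0.560 to 3.83 ± 0.208 RPKM (log2 fold change -0.50, SE 0.11, edgeR adjusted p = 0.0181). Without the shEHD1+Dox library of replicate 1 or 3 the adjusted p was 0.0770 or 0.0677. The other HOXA genes tested had low counts and wide intervals, such as HOXA4 at 0.67 (95% interval 0.02 to 1.32, edgeR adjusted p = 0.144) and HOXA11 at -0.52 (95% interval -1.26 to 0.22).

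HOXD13 missed the threshold of the test at a log2 fold change of -0.15, with a 95% interval of -0.29 to -0.01 and an edgeR adjusted p of 0.131, although its level of 61.9 ± 2.35 RPKM in shNTC+Dox and 55.9 ± 0.599 RPKM in shEHD1+Dox did not overlap. In HOXD 2 of 8 tested members were lower and 0 higher, beside 8.75% and 8.59% of all genes tested. HOXD11 (-0.22), HOXD8 (-0.10), HOXD3 (-0.10), HOXD4 (0.03) and HOXD12 (0.38) were not called. Counting non-overlapping groups in place of calls gave 8 members higher, beside 19.9% of all genes tested, and 6 lower, beside 19.4%. These are 24.2% and 18.2% of the members tested, and they add HOXB4 to the genes called higher and HOXB5, HOXC8 and HOXD13 to those called lower.

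By position, genes were called in the anterior, central and posterior parts of the clusters, beside 8.59% higher and 8.75% lower over all genes tested. Anterior genes (paralog groups 1 to 3) had 1 of 6 tested members higher and 0 lower, central genes (4 to 8) had 2 of 11 higher and 0 lower, and posterior genes (9 to 13) had 4 of 16 higher and 3 lower, with median log2 fold changes of 0.43, 0.09 and -0.07. Paralog group 10 held members that moved in opposite directions, as did group 9. HOXC10 rose while HOXA10 and HOXD10 fell, and the RPKM ratio of HOXC10 to HOXD10 went from 0.0390 ± 0.0092 to 0.120 ± 0.0097 (n = 3 each). The ratio of HOXC10 to HOXA10 went from 0.236 ± 0.0794 to 0.769 ± 0.0875, and that of HOXC9 to HOXD9 from 0.129 ± 0.0370 to 0.454 ± 0.0814. Each pair joins members called in opposite directions in these same libraries. The shift of the ratios therefore follows from the calls and adds no support to them. HOXA9 and HOXB9, also of group 9, were not called. HOXD9 and HOXD10 stayed the more abundant genes of these pairs in every library.

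Overlap with other genes was common in the clusters. Some exon bases were shared by 25 members, of which 21 were tested, 4 higher and 2 lower. The other 14 members shared none, of which 12 were tested, 3 higher (HOXB7, HOXB8 and HOXC11) and 1 lower (HOXD9). The shares over all genes tested were 8.59% higher and 8.75% lower. Whether the calls depend on shared bases was not tested by this split. Besides HOXC9 and HOXD10, the called genes that share exon bases were HOXA10, HOXB2, HOXC10 and HOXC13. Summed with the genes they overlap, HOXC10 gave 1.04 (adjusted p = 0.0241) and HOXA10 -0.50 (adjusted p = 0.0166), whereas HOXB2 at 0.46 (adjusted p = 0.0514) and HOXC13 at 0.50 (adjusted p = 0.0541) missed the threshold.

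Of 61 other genes inside the clusters, mostly antisense and long non-coding RNAs, 17 were tested, 0 were higher and 1 was lower. Over all genes tested the shares were 8.59% and 8.75%. The one that fell was MIR196A2 (ENSG00000207924), the miR-196a gene between HOXC10 and HOXC9, named here after its values were seen because its mean of 0.562 CPM is under the 1 CPM asked of named genes outside the HOX set. It had 24, 24 and 18 counts against 9, 6 and 7, with no overlap between groups (log2 fold change -1.70, SE 0.37, edgeR adjusted p = 0.0161). These are fragments over the hairpin in libraries of long RNA, where the gene lies in an intron of HOXC6, and they do not measure the mature miRNA. MIR196A2 passed the filter of at least 10 counts in at least 3 libraries only through the shNTC+Dox libraries, where it was higher. Its call is therefore given as a description. MIR196A1 and MIR196B had 0 counts in all libraries. HOXB8, whose 3′ UTR holds the near-complete match to miR-196a printed above, was among the members that rose, and the part of MIR196A2 in that was not tested. Of the others printed there, HOXC8 was lower without overlap and not called (-0.28, edgeR adjusted p = 0.0834), and HOXA7 was not tested.

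The 7-base complement of the seed, ACTACCT, was found in the 3′ UTR of 8 of the 39 HOX genes, HOXA5, HOXA7, HOXA9, HOXB1, HOXB6, HOXB7, HOXB13 and HOXC8. Among the 33 tested members it was in 5, beside 1114 of 12975 tested genes with a 3′ UTR (8.59%). These 5 members had a median log2 fold change of -0.02, and HOXB7 was the one called. Also singled out with values known, the long non-coding RNAs HOTAIR, of the HOXC cluster, and HAGLR, of the HOXD cluster, were at -0.11 (edgeR adjusted p = 0.892) and -0.40 (edgeR adjusted p = 0.0746). HAGLR had 591, 521 and 601 counts against 494, 443 and 502.

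Promoter sequences were at hand for 20 of the 39 members, in 27 entries of 300 bases (250 before and 50 after the start) listed by RefSeq on GRCh38. No member called higher was among them, nor was HOXD9, so the counts below do not describe the genes that rose. A CCAAT word, the site of the NF-Y factor, stood on either strand in 18 of 27 entries, beside 34.61% of all 35116 promoter entries of that length. By gene it stood in 17 of 20, for which no share over all genes was counted, and a gene can have several entries. The entries of HOXC4 and HOXC5 are the same stretch, which holds CCAAT and TTTATNG and so is counted under both genes. The median number of CpG pairs was 22 in the HOX entries and 14 over all. The other words searched, on both strands, were TATAAA in 5 entries (11.53% of all promoters), TTTATNG in 7 (9.73%), whose complement can overlap TATAAA, TGATTNAT in 2 (2.82%) and GGAAGGAA in 1 (3.67%). Shown are the 250 bases before the start of HOXD10, a member that fell, at chr2:176116528-176116777, and of HOXD13, the most abundant member, at chr2:176092471-176092720, both on the plus strand, with the CCAAT word or its complement in capitals.
HOXD10: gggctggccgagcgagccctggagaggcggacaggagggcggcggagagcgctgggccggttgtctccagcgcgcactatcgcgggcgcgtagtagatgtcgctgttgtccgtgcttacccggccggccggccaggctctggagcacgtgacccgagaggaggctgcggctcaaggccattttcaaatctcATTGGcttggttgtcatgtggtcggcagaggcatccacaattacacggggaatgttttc
HOXD13: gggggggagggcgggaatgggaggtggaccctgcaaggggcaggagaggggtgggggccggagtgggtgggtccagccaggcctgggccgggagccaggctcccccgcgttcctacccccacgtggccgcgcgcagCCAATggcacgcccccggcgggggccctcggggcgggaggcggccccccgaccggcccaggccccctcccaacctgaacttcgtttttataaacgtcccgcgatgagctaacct
HOXD10 had 23 CpG pairs in this stretch and HOXD13 had 21. A match to these letters is a description of the sequence and not a measured binding site.

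The HOX partners and the regulators of HOX clusters were counted in the same fit. Over all genes tested 8.59% were higher and 8.75% were lower. The lists in this and the next paragraph held 0 to 2 calls per direction. They were not tested against these shares, and no list is read as differing from the background. Of 9 TALE partner genes 8 were tested, of which 1 was higher and 1 lower, with a median over the list of 0.06. PBX3, a DNA-binding partner of HOX proteins, was higher, from 17.7 ± 1.51 to 23.2 ± 1.2 CPM (log2 fold change 0.40, SE 0.10, edgeR adjusted p = 0.0285). Lists with 0 calls by edgeR in a direction had in that direction, at an unadjusted p under 0.05, 2 genes inside the clusters, 0 of PRC2, 1 of PRC1 and 0 related homeobox genes, and DESeq2's Wald test called 0 of them. Of 12 genes of Polycomb complex PRC2 and its cofactors, all tested, 0 were higher and 1 was lower, SUZ12, a core subunit, at 90.7 ± 7.67 and 57.4 ± 7.84 CPM (log2 fold change -0.66, SE 0.11, edgeR adjusted p = 0.00454). Of 12 genes of PRC1, 0 were higher and 2 lower, among them the chromodomain subunit CBX6, at 187 ± 16.5 and 114 ± 7.93 CPM (log2 fold change -0.71, SE 0.09, edgeR adjusted p = 0.0012). The medians over the PRC2 and PRC1 lists were -0.07 and 0.01.

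Of 15 genes of the MLL complexes and their partners, 2 were higher and 1 lower, with a median of 0.00. DOT1L, the H3K79 methyltransferase, went from 102 ± 12.9 to 56.6 ± 2.83 CPM (log2 fold change -0.85, SE 0.10, edgeR adjusted p = 0.0010). MLLT3, a reader that recruits DOT1L, was higher (0.48, edgeR adjusted p = 0.0029), as was KDM6B, which removes the H3K27 methylation that PRC2 sets (0.40, edgeR adjusted p = 0.0205). Of 17 genes of the retinoid pathway, an inducer of HOX genes, 12 were tested, with RARG higher (0.37, edgeR adjusted p = 0.0385), and RXRA (-0.56, edgeR adjusted p = 0.00824) and CYP26B1, which degrades retinoic acid (-0.91, edgeR adjusted p = 0.00337), lower. Of 13 related homeobox genes 3 were tested and 0 called in either direction.

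Genes around the clusters were also counted, some near a border and some far from it. Whether changes stopped at the cluster borders was not tested. Among 137 genes within 500 kb of a cluster 45 were tested, 7 were higher (15.6%, beside 8.59% of all genes tested) and 1 was lower (2.22%, beside 8.75%), with a median log2 fold change of 0.05. SKAP2, an adaptor of Src kinase signalling next to the anterior end of HOXA, had 259, 284 and 216 counts against 589, 555 and 586. Its groups were far apart and it had the lowest adjusted p of these genes (log2 fold change 1.06, SE 0.11, edgeR adjusted p = 0.000585), while HOXA2 and HOXA3 at that end of the cluster were at 0.88 and 0.37 with edgeR adjusted p-values of 0.294 and 0.444. PDE1B, a phosphodiesterase gene, had 297, 321 and 260 counts against 135, 138 and 200 (log2 fold change -1.03, SE 0.15, edgeR adjusted p = 0.00264). It lies at the far edge of the window around HOXC, at chr12:54549601-54579239, while HOXC ends at 54056030. LINC01117 in the window of HOXD (0.87) and PHOSPHO1 in that of HOXB (0.46), a phosphatase of bone mineralization, were higher, with edgeR adjusted p-values of 0.0267 and 0.0188. Both lie away from the border, from chr2:176495255 where HOXD ends at 176190907, and from chr17:49223366 where HOXB ends at 48728750.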

How the data were processed

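Per the labels and the study's methods, RNA of 6 TC71 samples was made into TruSeq v2 libraries, which do not keep strand, and sequenced as read pairs. The authors deposited whole-number counts per gene with no normalization. The methods name hisat2, StringTie and hg38 with Ensembl annotation, the submitters' processing notes name STAR 2.7.3a, DESeq2 and hg38, and how multi-gene reads were counted is not given in the sources used here. Of 60676 identifiers, 99.5% were found in GENCODE 44, which gave exons and coordinates.

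In R 4.3.3, TMM-scaled counts entered the quasi-likelihood test of edgeR 4.0.16 (robust glmQLFit, then glmQLFTest) if 3 or more libraries had 10 or more counts of the gene. P-values were adjusted by Benjamini-Hochberg over all tested genes, with calls made under 0.05 and, separately, with a change of at least 2-fold. Replicates are separate samples by label, and no source used here says they are separate cultures, so that p-values measure the spread between these samples. The exact two-sided permutation test cannot go below p = 0.1. On simulated counts the test was checked before use. RPKM used the union of annotated exons. Alternatives were DESeq2's size factors and Wald test, other filters on low counts, a replicate block, each library left out, rows sharing a symbol or exon bases summed, other gene lengths and another prior count.

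Members and gene lists were chosen with earlier results of these data known. Counts per library were to be given for members at an adjusted p under 0.05 and for the 5 most abundant, and from other lists up to 3 genes per direction at an adjusted p under 0.05 and 1 CPM. The floor of 3 counts covers counting error only. Some genes of the lists are not reported here.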

Additional observations from a re-analysis of the deposited data

How the results depend on the processing

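The 10 called HOX genes kept their direction in every alternative that gave them a value, which was 13 for each but HOXC11, with 11, and HOXC10, HOXD9 and HOXD10 also kept an adjusted p under 0.05 in all 13. The number of HOX genes higher at an adjusted p under 0.05 (7) was 1 to 7 when libraries were left out in turn, with 1 (HOXC10) without the shEHD1+Dox library of replicate 1 or 3, 3 without the shNTC+Dox library of replicate 1 or 2, and 7 without that of replicate 3. The number lower (3) was 2 to 4. The 4 higher by at least 2-fold became 2 with at least 10 counts in every library, 2 (HOXC9 and HOXC10) with the Wald test of DESeq2, which gave HOXC11 no adjusted p, and 1 to 3 with libraries left out, with 1 (HOXC10) without the shNTC+Dox library of replicate 3 or the shEHD1+Dox library of replicate 1 or 3.

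Samples with the same replicate number did not deviate together (correlations of 0.072, -0.0593 and -0.0448, against a mean of 0.00602 for different numbers), so the numbers were not taken as pairs. With the replicate number as a block, 3 HOX genes were higher (HOXB8, HOXC9 and HOXC10), the same 3 were lower, and 12 of the genes in the other lists were called in place of 20.

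The calls in those lists numbered 10 to 25 with libraries left out (10, 11 and 12 without the shEHD1+Dox libraries of replicates 3 and 1 and the shNTC+Dox library of replicate 1), and the genes of the whole table past both thresholds (473) 293 to 452. Without a filter on low counts the median of the tested HOXD genes moved from -0.12 to -0.08. Uncalled members that changed sign when a library was left out were HOXA9 (-0.32 to 0.18), HOXA13 (-0.30 to 0.15, and 0.12), HOXB6 (-0.01 to 0.22), HOXB13 (-0.13 to 0.07, and 0.06), HOXC12 (-0.07 to 0.03, and 0.00) and HOXD4 (to -0.02), and HOXC6 went to 0.24 when summed with the genes that share its exon bases, which include HOXC9. The causes were not tested. Depth limits the 6 members not tested and HOXC11.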
